A study of Mus musculus with 12 samples.

Results

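The 10 genes described here are Hif1a and Epas1, which encode the oxygen-regulated alpha subunits of the hypoxia inducible factors, and 8 genes known as their targets: Egln3, Ankrd37, Adm, P4ha1, Vegfa, Car9, Bnip3 and Ndrg1. They were chosen by symbol, and each matched 1 of the 24432 gene rows of the expression table. All 10 passed the filter on low values, which asked for at least 1 FPKM in at least 3 of the 12 libraries. FPKM counts sequenced fragments per length of transcript and depth of the library. Comparison between libraries depends on how each was scaled, and the column sums differed, from 706090 to 738050 in proximal tubule cells and from 1352300 to 2527700 in tumor libraries.

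Hypoxia inducible factors are pairs of an alpha subunit, encoded by Hif1a or Epas1 (HIF-2 alpha), and the stable partner encoded by Arnt. In oxygenated cells prolyl hydroxylases of the Egln family mark the alpha subunit, the ubiquitin ligase subunit encoded by Vhl binds the mark, and the protein is degraded. In low oxygen the subunit persists, enters the nucleus and binds short DNA motifs near genes for glycolysis, vessel growth, acid balance, mitophagy and collagen processing. The control acts mainly on the protein, so transcript levels of Hif1a and Epas1 are not a measure of factor activity. Loss of VHL is the usual first step of human clear cell renal carcinoma, in which HIF-2 alpha is a drug target.

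RNA of 12 mouse samples was sequenced, 3 in each of 4 groups. Allograft tumors (genotype Lats1-/-;Lats2-/-, of mixed source background) grew for 6 weeks after cells had been injected under the kidney capsule of NOD/scid hosts aged 6 to 8 weeks, which lack T and B cells. Lung metastases and primary kidney tumors came from Slc34a1CreERT2;Lats1/2flox/flox mice of mixed background, in which tamoxifen, given as 3 injections at the age of 1 month, activates Cre recombinase in cells that express the proximal tubule gene Slc34a1. The tissue was taken 4 months after tamoxifen. Proximal tubule cells had been sorted from Slc34a1CreERT2;Lats1c/c;Lats2c/+;RosaTomato adult mice of mixed background, so they carry the same Cre and conditional alleles except for 1 normal copy of Lats2. The labels call these cells wild type and do not say whether recombination had taken place. Lats1 and Lats2 encode kinases of the Hippo pathway that restrain the transcriptional co-activators YAP and TAZ. Nothing in the labels says that replicates were separate animals, so the p-values reflect the scatter of these libraries alone, and it may be technical.

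Lats1 averaged 6.91 ± 1.16 FPKM in allograft tumors, 10.2 ± 0.58 in metastases, 13.3 ± 1.27 in primary tumors and 12.4 ± 0.48 in proximal tubule cells (SD, n = 3 each), and Lats2 averaged 15.3 ± 2.70, 21.6 ± 1.48, 17.9 ± 4.41 and 10.7 ± 0.24 FPKM in the same groups. These gene totals cannot show a deleted exon. Estimated depth was 12.9 to 21.1 M fragments in the 9 tumor libraries and 5.59 to 6.80 M in the proximal tubule libraries. Among low genes, the ratio to primary tumor 1 took 1 common value for 83 to 107 of 464 to 530 genes in the other tumor libraries but for 1 to 2 of 133 to 142 genes in the proximal tubule libraries, so whether 1 set of gene lengths gave all columns is not known, and every comparison with proximal tubule cells rests on it. The median gene stood higher against proximal tubule cells by 0.66 in allograft tumors, 0.68 in metastases and 0.59 in primary tumors on the log2 scale, and changes are also given relative to that shift. Tumor libraries were mixed tissue. The 8 lung epithelial markers summed to 35.1 to 43.8 FPKM in allograft tumors, 12140 to 19300 in metastases, 87.9 to 874 in primary tumors and 311 to 592 in proximal tubule cells, where 4 of them, Sftpc and Sftpb included, were at 0. Napsa alone made up 72.7 to 859 FPKM of the sum in primary tumors and 308 to 589 in proximal tubule cells, and Foxj1 21.7 to 37.5 in allograft tumors. The proximal tubule marker Slc34a1 was at 6.17, 833 and 166 FPKM in primary tumors 1, 2 and 3, against 866 to 1040 FPKM in proximal tubule cells, so primary tumors 2 and 3 stand apart from primary tumor 1, and changes of the 10 genes that are called with or without them and move by over 1.5 times, or gain or lose a call, are given without them too. In bulk RNA, fewer cells of a type and less RNA per cell cannot be told apart.

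In allograft tumors Hif1a was at its highest and Epas1 at its lowest of the 4 groups, and Car9, Ankrd37, Adm and P4ha1 stood above proximal tubule cells. The Car9 call was lost under all 4 other scalings, with a change of 0.38 after rescaling to TPM. Ndrg1 was lower than in proximal tubule cells, with the largest change of the 10 genes in allograft tumors (-4.12) and in metastases (-4.96). Lung metastases shared higher Hif1a, Ankrd37, Adm and P4ha1, although after rescaling to TPM the Hif1a change turned to -0.01 and the P4ha1 call was lost. In primary tumors fewer genes were called: Hif1a was 2.07-fold higher, with a change of -0.07 after TPM rescaling, Ndrg1 was lower, and the other 8 genes were not called. Changes were tested with limma on log2(FPKM + 1) with Benjamini-Hochberg adjustment over 16313 genes, and an adjusted p under 0.05 made a call. Among the 4 groups limma's F test called 8 of the 10 genes, against 79.5% of all genes, and left out Vegfa (adjusted p = 0.0871) and Egln3 (adjusted p = 0.348).

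**Figure D1:**
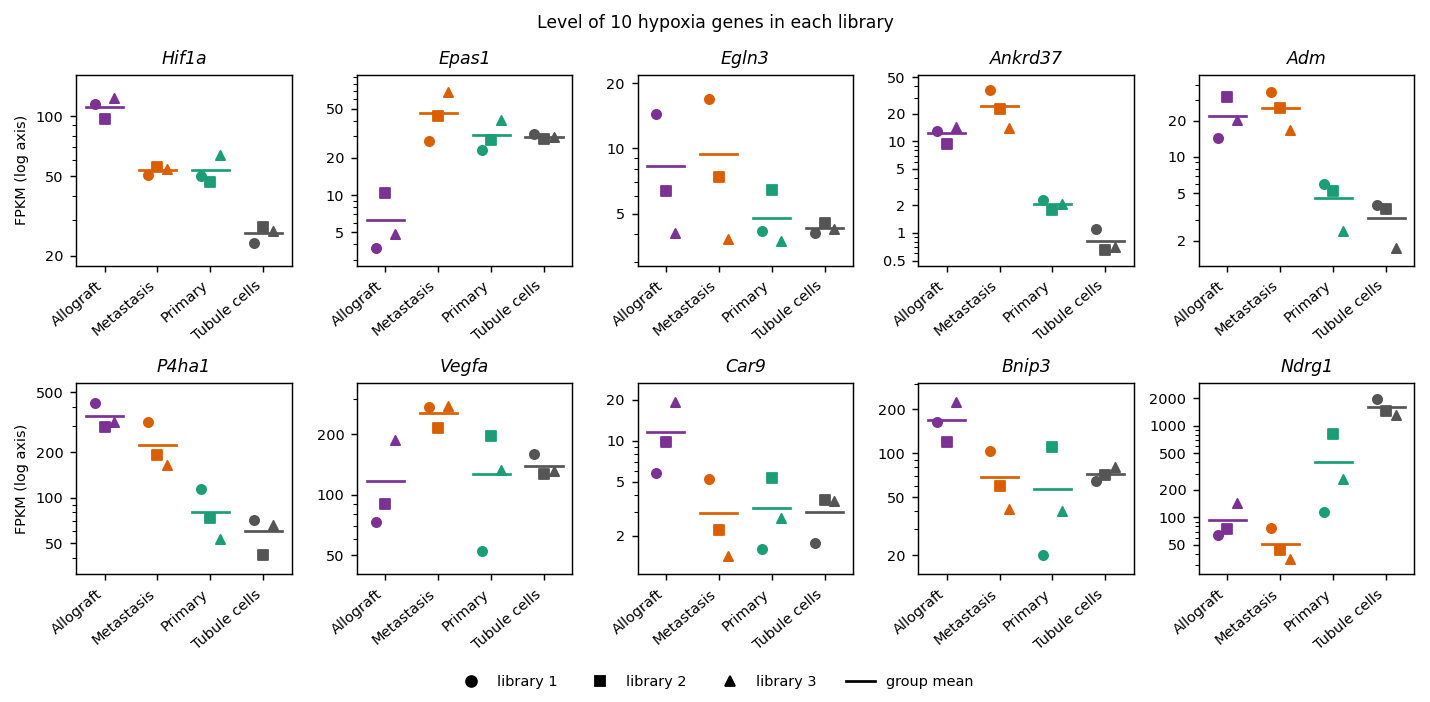
FPKM (log axis) of the 10 genes in each of the 12 libraries, by group from left to right: allograft tumors, metastases, primary tumors and proximal tubule cells. Points are libraries 1 to 3 and the line is their mean. Hif1a runs from 96.7 to 124 FPKM in allograft tumors and from 23.2 to 27.9 FPKM in proximal tubule cells, while Ndrg1 is highest in proximal tubule cells.

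Against proximal tubule cells, allograft tumors had 5 of the 10 genes called higher and 2 lower, where 52.2% of all genes were called higher and 16.9% lower. Metastases had 4 higher and 1 lower, beside 54% and 14.4% of all genes. Primary tumors had 1 higher and 1 lower, beside 48.2% and 4.9% of all genes. As deposited, the share of higher calls was close to the background in allograft tumors and below it in metastases and primary tumors, so these counts are no result about the 10 genes. All 3 share the proximal tubule libraries. Without primary tumors 2 and 3, the changes of primary tumor 1 alone were -1.39 for Vegfa and -1.80 for Bnip3. With all libraries they were -0.32 and -0.66. Every test with this lone library assumes that it varies like the other groups, and more of all genes were then called lower. After other scalings the calls over all genes divided differently. For primary tumors the 7861 higher and 800 lower calls became 3028 and 5407 on the TPM scale, 4161 and 2940 with median-of-ratios factors, 2262 and 3476 after quantile normalization, and 4977 and 1667 without the 50 most abundant genes. For metastases the 8803 and 2355 calls became 4511 and 5817, 6099 and 4366, 4581 and 5275, and 6518 and 3695 under the same settings. For allograft tumors the 8521 and 2755 calls became 3503 and 6908, 6106 and 4582, 4982 and 4980, and 5574 and 4624. Of the 10 genes, 4 were called higher and 3 lower in allograft tumors on the TPM scale, and 4 and 2 under each of the other 3 scalings. In metastases these counts were 2 and 2 on the TPM scale and 4 and 1 under each of the others. In primary tumors they were 0 and 3 on the TPM scale, 0 and 1 with median-of-ratios factors, and 1 and 1 under the other 2.

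Between tumor groups the background was lower. Allograft tumors against primary tumors had 6 genes higher (Hif1a, Car9, Ankrd37, Bnip3, Adm and P4ha1) and 2 lower (Epas1 and Ndrg1), where 20.5% of all genes were called higher and 21.1% lower. Metastases against primary tumors had Ankrd37, Adm and P4ha1 higher and Ndrg1 lower, beside 11.3% and 9.59% of all genes. Allograft tumors against metastases had Hif1a and Car9 higher and Epas1 lower, beside 10.4% and 13.3% of all genes. With primary tumor 1 alone fewer of these genes were called in allograft tumors and in metastases against it, and fewer of all genes too. The 3345 higher and 3439 lower calls over all genes in allograft against primary tumors became 1726 and 3690 after TPM rescaling and 1994 and 4780 without the 50 most abundant genes. In allograft tumors against metastases, 1703 and 2169 calls became 464 and 2192, and 795 and 2548, under these 2 settings, and 2246 and 1855 after quantile normalization. In metastases against primary tumors, 1849 and 1565 became 1329 and 1742 without the 50 most abundant genes.

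**Figure D2:**
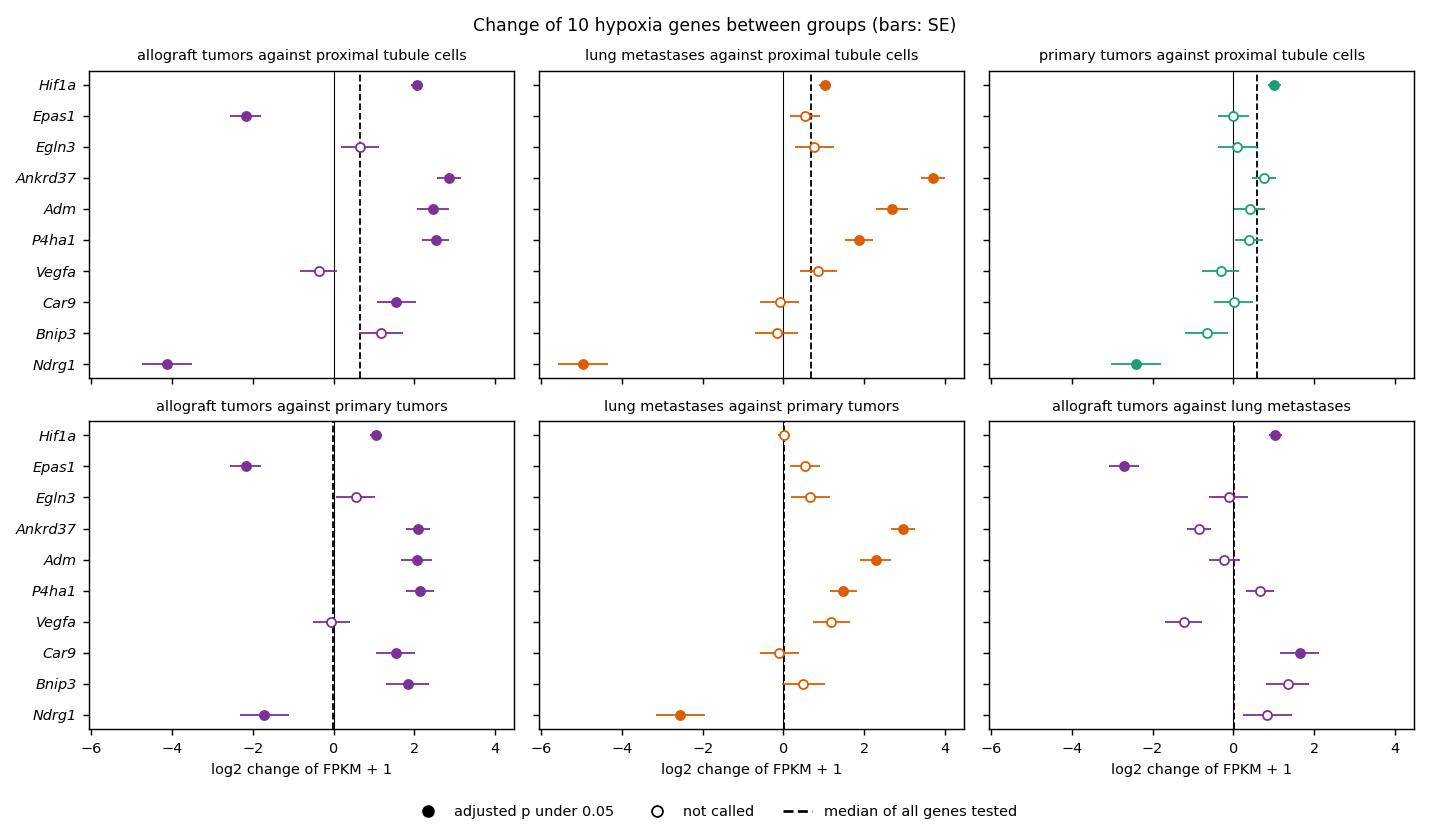
Log2 change of FPKM + 1 with its SE for the 10 genes in 6 comparisons, fitted with limma to 12 libraries. Filled points passed an adjusted p of 0.05, the solid line marks 0 and the dashed line the median of all genes tested, which lies at 0.59 to 0.68 against proximal tubule cells and close to 0 between tumor groups. The Hif1a points of metastases and primary tumors against proximal tubule cells turn to -0.01 and -0.07 after TPM rescaling, where the median of all genes lies at -0.18 and -0.29.

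Hif1a (ENSMUSG00000021109, chr12:73901375-73947530, plus strand) had 115, 96.7 and 124 FPKM in allograft tumors, 50.9, 55.7 and 54.3 FPKM in metastases, 50.3, 46.9 and 63.7 FPKM in primary tumors, and 23.2, 27.9 and 26.5 FPKM in proximal tubule cells. The groups formed 3 levels without overlap, since metastases and primary tumors lay in the same range. The mean in allograft tumors was 4.32-fold that in proximal tubule cells (log2 2.07 ± 0.16 SE, adjusted p = 4.66e-06 by limma), and the change was 1.41 relative to the median gene. Metastases (1.03 ± 0.16, adjusted p = 2.25e-04) and primary tumors (1.02 ± 0.16, adjusted p = 4.89e-04) stood about the same above proximal tubule cells, by 0.35 and 0.43 relative to the median gene. These last 2 changes turned to -0.01 (adjusted p = 0.968 by limma) and -0.07 (adjusted p = 0.826) on the TPM scale, where the median gene was at -0.18 and -0.29. The primary tumor call was also lost with median-of-ratios factors (0.38, adjusted p = 0.0859). Over 24 alternatives the adjusted p ran from 3.13e-07 to 0.968 in metastases and from 3.08e-06 to 0.826 in primary tumors. Between tumor groups, allograft tumors exceeded primary tumors by 1.05 ± 0.16 (adjusted p = 7.50e-04) and metastases by 1.04 ± 0.16 (adjusted p = 0.00104), and the second call was lost after TPM rescaling (0.68, adjusted p = 0.0682, the highest over 24 alternatives, with 2.09e-04 the lowest).

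Epas1 (ENSMUSG00000024140, chr17:86753700-86833410, plus strand) had 3.72, 10.5 and 4.80 FPKM in allograft tumors, 27.4, 43.5 and 68.3 FPKM in metastases, 23.1, 27.8 and 40.7 FPKM in primary tumors, and 31.3, 28.3 and 29.8 FPKM in proximal tubule cells. The 3 allograft libraries lay below all 9 others, and the other 3 groups overlapped. The allograft change was -2.18 ± 0.38 against proximal tubule cells (adjusted p = 4.58e-04 by limma), -2.17 ± 0.38 against primary tumors (adjusted p = 0.00155) and -2.71 ± 0.38 against metastases (adjusted p = 6.35e-04), and each was called in all 24 alternatives. Against proximal tubule cells the mean was 0.212-fold. Metastases (0.53 ± 0.38, adjusted p = 0.232) and primary tumors (-0.004 ± 0.38, adjusted p = 0.997) were not called against proximal tubule cells.

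Epas1 is also abundant in endothelium. The 12 endothelial markers summed to 94.4, 189 and 111 FPKM in allograft tumors 1 to 3, 432, 623 and 736 FPKM in metastases, 314, 268 and 416 FPKM in primary tumors, and 92.7, 67.6 and 66.4 FPKM in proximal tubule cells, with none at 0 in any group. Within allograft tumors and within metastases the Epas1 order matched the order of these sums. Within primary tumors and within proximal tubule cells the orders differed. Across groups, as deposited, the orders also differed. Proximal tubule cells had the lowest sums and about 30 FPKM of Epas1 (29.8 ± 1.47), while allograft tumors had higher sums and less Epas1. The higher allograft sums depend on scaling. Of the 12 markers 4 were called higher there against proximal tubule cells, with a median change of 0.55 beside 0.66 for all genes. Against metastases 12 of the 12 were called lower in allograft tumors, beside 13.3% of all genes. Against primary tumors 7 were called lower, beside 21.1% of all genes. Epas1 was called lower in both comparisons. The part of vessels in the Epas1 levels of allograft tumors and metastases was not tested.

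The ratio of Epas1 to Hif1a within a library does not depend on how the library was scaled, apart from the pseudocount. It still depends on the gene lengths used, and whether proximal tubule and tumor columns share these is not known. As a ratio of plain FPKM values, without a pseudocount, it was 0.0325, 0.108 and 0.0388 in allograft tumors and 0.539, 0.781 and 1.26 in metastases. In primary tumors it was 0.459, 0.593 and 0.639, and in proximal tubule cells 1.35, 1.02 and 1.12. The log2 ratio, which was the one tested, was taken with 1 added to each FPKM value. Its means were -4.04 ± 0.83 in allograft tumors, -0.30 ± 0.60 in metastases, -0.82 ± 0.24 in primary tumors and 0.20 ± 0.20 in proximal tubule cells (SD, n = 3 each). The ratio differed among the 4 groups (exact permutation test of F over 369600 assignments of libraries, two-sided p = 0.001688). Allograft tumors held the 3 lowest ratios, and primary tumors lay below proximal tubule cells without overlap. Single pairs of groups could not reach p under 0.10 by exact permutation with 3 against 3, so none was tested.

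**Figure D3:**
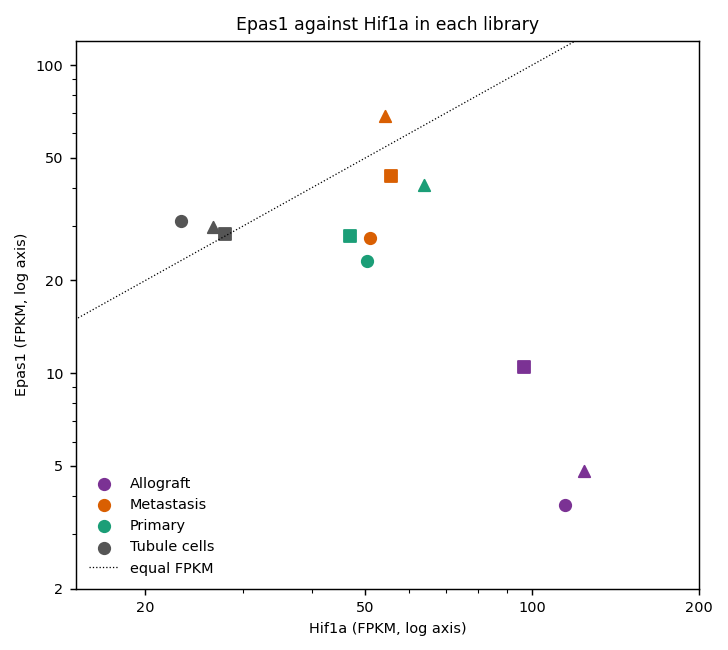
Epas1 against Hif1a in FPKM (both axes log) in the 12 libraries, with symbols for library 1 (circle), 2 (square) and 3 (triangle) and a dotted line at equal FPKM. The allograft tumors lie at the lower right with 3.72 to 10.5 FPKM of Epas1, and the proximal tubule cells lie on or just above the line.

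Egln3 encodes a prolyl hydroxylase that marks the alpha subunits and is itself induced by them, which closes a feedback loop. Egln3 (ENSMUSG00000035105, chr12:54178981-54203860, minus strand) had 14.3, 6.33 and 4.07 FPKM in allograft tumors, 16.9, 7.39 and 3.79 FPKM in metastases, 4.13, 6.45 and 3.71 FPKM in primary tumors, and 4.06, 4.50 and 4.25 FPKM in proximal tubule cells. All groups overlapped. A single library of the allograft tumors and a single one of the metastases lay far above the others, 3.53-fold and 4.47-fold above the lowest of their group. No comparison was called, with log2 changes against proximal tubule cells of 0.65 ± 0.48 in allograft tumors (95% interval -0.41 to 1.72), 0.77 ± 0.48 in metastases (-0.30 to 1.83) and 0.10 ± 0.48 in primary tumors (-0.96 to 1.17).

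Ankrd37, a small ankyrin repeat protein gene and a known HIF-1 target, showed the largest log2 rise of the 10 against proximal tubule cells in allograft tumors and in metastases. Ankrd37 (ENSMUSG00000050914, chr8:45996902-46005707, minus strand) had 12.9, 9.47 and 14.4 FPKM in allograft tumors, 36.6, 22.3 and 14.0 FPKM in metastases, 2.31, 1.77 and 2.10 FPKM in primary tumors, and 1.11, 0.64 and 0.70 FPKM in proximal tubule cells. Allograft tumors and metastases overlapped each other and lay above all primary tumors and proximal tubule cells. It rose by 2.86 ± 0.30 in allograft tumors (adjusted p = 1.85e-05 by limma) and 3.71 ± 0.30 in metastases (adjusted p = 4.77e-06) against proximal tubule cells, and by 2.10 ± 0.30 (adjusted p = 5.64e-04) and 2.95 ± 0.30 (adjusted p = 8.96e-05) against primary tumors, in all 24 alternatives. Primary tumors lay 2.52-fold above proximal tubule cells without overlap but were not called (0.76 ± 0.30, adjusted p = 0.0517; 6 of 24 alternatives called it, with adjusted p from 0.00959 to 0.726). The proximal tubule values rest on about 10 fragments in all 3 libraries, if the longest transcript is taken. Their counting error alone (95% exact Poisson interval) puts the fold of means at 8.15 to 31.3 in allograft tumors and 16.2 to 62 in metastases.

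Adm encodes adrenomedullin, a secreted peptide that widens vessels. Adm (ENSMUSG00000030790, chr7:110627661-110629820, plus strand) had 14.3, 31.7 and 20.2 FPKM in allograft tumors, 34.9, 25.7 and 16.8 FPKM in metastases, 5.91, 5.21 and 2.42 FPKM in primary tumors, and 3.94, 3.68 and 1.73 FPKM in proximal tubule cells. As with Ankrd37, the first 2 groups lay above the other 2 without overlap, and primary tumors overlapped proximal tubule cells. Adm rose 7.08-fold in allograft tumors (2.46 ± 0.39, adjusted p = 2.43e-04 by limma) and 8.28-fold in metastases (2.69 ± 0.39, adjusted p = 1.59e-04), by 1.81 and 2.01 relative to the median gene. Against primary tumors the changes were 2.06 ± 0.39 in allograft tumors (adjusted p = 0.00237) and 2.29 ± 0.39 in metastases (adjusted p = 0.00286). With primary tumor 1 alone these were 1.67 (adjusted p = 0.0516) and 1.90 (adjusted p = 0.0686), the only lost calls of 24 alternatives each, whose lowest adjusted p were 2.54e-04 and 3.10e-05.

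P4ha1 encodes the catalytic subunit of collagen prolyl 4-hydroxylase, which collagen needs to fold. P4ha1 (ENSMUSG00000019916, chr10:59323296-59373304, plus strand) had 424, 295 and 317 FPKM in allograft tumors, 317, 192 and 165 FPKM in metastases, 115, 72.9 and 53.1 FPKM in primary tumors, and 71.2, 41.8 and 66.4 FPKM in proximal tubule cells. It was the most abundant of the 10 genes in allograft tumors (345 ± 69.3 FPKM) and second after Vegfa in metastases. P4ha1 rose 5.77-fold in allograft tumors (2.53 ± 0.34, adjusted p = 8.44e-05 by limma) and 3.76-fold in metastases (1.87 ± 0.34, adjusted p = 6.72e-04); the metastasis call was lost after TPM rescaling (0.81, adjusted p = 0.0579, with 8.25e-06 the lowest over 24 alternatives). Against primary tumors it rose by 2.14 ± 0.34 in allograft tumors (adjusted p = 9.74e-04, and 1.56 with primary tumor 1 alone, adjusted p = 0.0308) and 1.49 ± 0.34 in metastases (adjusted p = 0.0136). The second call was lost without metastasis 1 (1.21, adjusted p = 0.0583), without primary tumor 3 (1.23, adjusted p = 0.0558), in a fit of the 2 groups alone and with primary tumor 1 alone (0.90, adjusted p = 0.342), within a range of 2.01e-04 to 0.342 over 24 alternatives. Fibroblast markers, genes of collagen-making cells, summed to 1723 to 2813 FPKM in allograft tumors, 619 to 754 in metastases, 174 to 1178 in primary tumors and 3.01 to 5.28 in proximal tubule cells, and all 10 were called higher in each tumor group; primary tumor 1 held both the highest P4ha1 and the highest sum of its group. Their part in the P4ha1 levels was not tested.

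Hypoxia inducible factors bind DNA at the short core RCGTG, that is ACGTG or GCGTG. Promoter windows of 300 bases, from 250 before to 50 after the start of transcription, were taken from RefSeq (GRCm38.p6), and 8 of the 10 genes matched one; Epas1 and Ndrg1 did not. Both strands were searched. A core was present in a window of all 8, against 43.77% of the 32851 windows in the table (19.62% for ACGTG and 32.39% for GCGTG). For Vegfa it lay in the second of 2 windows, which is inside the gene. The windows of Ankrd37 and Hif1a also lie inside the gene coordinates printed here, away from their outer start. The core of Car9 lies inside its printed gene coordinates too. The longer E-box CACGTG contains ACGTG on both strands, so 1 such site counts as 2 matches; it was present in Hif1a and Bnip3 and in 7.15% of all windows. A match describes the letters and not binding. The windows of Ankrd37 (chr8:45999801-46000100, minus strand), Adm (chr7:110627407-110627706, plus strand), P4ha1 (chr10:59323046-59323345, plus strand), Bnip3 (chr7:138909457-138909756, minus strand) and Car9 (chr4:43506776-43507075, plus strand) are shown 5′ to 3′ in gene direction because these genes were called higher together in allograft against primary tumors. Capitals mark the cores on either strand, so CACGT and CACGC are cores read from the other strand.
Ankrd37: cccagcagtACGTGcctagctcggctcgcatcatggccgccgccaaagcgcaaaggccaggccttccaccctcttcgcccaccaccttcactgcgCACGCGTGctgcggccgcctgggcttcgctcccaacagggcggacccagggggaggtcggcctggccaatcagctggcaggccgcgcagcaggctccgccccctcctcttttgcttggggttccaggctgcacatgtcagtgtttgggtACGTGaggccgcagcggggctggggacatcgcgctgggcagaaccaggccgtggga
Adm: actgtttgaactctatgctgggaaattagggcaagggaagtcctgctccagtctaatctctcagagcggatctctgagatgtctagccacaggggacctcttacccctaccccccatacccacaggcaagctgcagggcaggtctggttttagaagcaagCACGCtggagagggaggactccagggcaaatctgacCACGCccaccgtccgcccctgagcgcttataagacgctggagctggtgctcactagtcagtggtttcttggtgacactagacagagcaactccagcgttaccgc
P4ha1: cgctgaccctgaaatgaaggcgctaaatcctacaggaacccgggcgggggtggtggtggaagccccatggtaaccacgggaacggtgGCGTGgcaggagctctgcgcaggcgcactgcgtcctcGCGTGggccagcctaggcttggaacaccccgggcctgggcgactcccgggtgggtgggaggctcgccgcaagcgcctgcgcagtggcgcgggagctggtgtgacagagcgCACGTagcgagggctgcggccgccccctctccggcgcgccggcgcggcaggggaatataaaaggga
Bnip3: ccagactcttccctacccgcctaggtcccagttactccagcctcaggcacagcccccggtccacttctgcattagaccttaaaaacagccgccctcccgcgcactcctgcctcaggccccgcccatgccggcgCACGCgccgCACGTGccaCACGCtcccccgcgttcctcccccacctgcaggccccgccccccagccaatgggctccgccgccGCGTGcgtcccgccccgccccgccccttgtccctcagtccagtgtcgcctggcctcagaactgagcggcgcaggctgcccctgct
Car9: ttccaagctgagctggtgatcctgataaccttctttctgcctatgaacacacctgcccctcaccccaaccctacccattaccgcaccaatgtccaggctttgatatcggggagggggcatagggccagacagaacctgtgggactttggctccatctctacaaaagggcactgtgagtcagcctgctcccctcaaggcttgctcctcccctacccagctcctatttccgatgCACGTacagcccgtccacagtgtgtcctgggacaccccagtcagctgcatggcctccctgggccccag
Ankrd37 held 4 matches in its window, with first bases at -241, -155, -152 and -6 from the start. Bnip3 held 5, between -117 and -35, P4ha1 held 3, at -163, -126 and -16, Adm held 2, at -90 and -54, and Car9 held 1, at -18.

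Vegfa encodes the growth factor that drives vessel sprouting. Vegfa (ENSMUSG00000023951, chr17:46016993-46032369, minus strand) had 72.9, 89.5 and 188 FPKM in allograft tumors, 274, 216 and 276 FPKM in metastases, 52.2, 198 and 132 FPKM in primary tumors, and 159, 126 and 132 FPKM in proximal tubule cells. The 3 metastases lay above all other libraries, and the other groups overlapped. No comparison was called: the largest were -1.24 ± 0.46 in allograft tumors against metastases (adjusted p = 0.0771 by limma, called in 8 of 24 alternatives with adjusted p from 0.00177 to 0.237) and 1.18 ± 0.46 in metastases against primary tumors (adjusted p = 0.0907, called in 3 of 24, from 0.00383 to 0.208). With primary tumor 1 alone the second change was 2.26 (adjusted p = 0.0175). Metastases exceeded proximal tubule cells by 0.87 ± 0.46 (adjusted p = 0.114). The lung epithelial markers, which were at their highest in metastases, mark cells that also make Vegfa, and their part in the level was not tested.

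Car9 encodes a membrane carbonic anhydrase that is very low in normal kidney and is used as a marker of human clear cell carcinoma. Car9 (ENSMUSG00000028463, chr4:43506966-43513729, plus strand) had 5.80, 9.81 and 19.3 FPKM in allograft tumors, 5.25, 2.22 and 1.42 FPKM in metastases, 1.60, 5.30 and 2.70 FPKM in primary tumors, and 1.78, 3.65 and 3.59 FPKM in proximal tubule cells. The allograft tumors lay above all 9 other libraries, though by little in allograft tumor 1, and the other 3 groups overlapped. Car9 rose in allograft tumors by 1.55 ± 0.48 against proximal tubule cells (adjusted p = 0.0146 by limma), 1.54 ± 0.48 against primary tumors (adjusted p = 0.0266) and 1.65 ± 0.48 against metastases (adjusted p = 0.0320). These calls held in 18, 16 and 17 of 24 alternatives. Against proximal tubule cells the change was 0.38 after TPM rescaling (adjusted p = 0.486, with 0.00741 the lowest), and the call was also lost after median-of-ratios scaling, quantile normalization, without the 50 most abundant genes, without allograft tumor 3 (1.137, adjusted p = 0.0595) and without proximal tubule library 1 (1.31, adjusted p = 0.0573). Against primary tumors it was lost without allograft tumor 2 or 3, without primary tumor 1 or 3 and with primary tumor 1 alone (2.14, adjusted p = 0.0507), and against metastases without allograft tumor 2 or 3 and without metastasis 2 or 3. Both were also lost after TPM rescaling, without the 50 most abundant genes and in a fit of the 2 groups alone, with adjusted p up to 0.0883 and 0.132. Metastases (-0.09 ± 0.48, adjusted p = 0.868) and primary tumors (0.01 ± 0.48, adjusted p = 0.988) were not called against proximal tubule cells, with 95% intervals of -1.16 to 0.98 and -1.06 to 1.08.

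Bnip3 encodes a mitochondrial protein that directs mitophagy, the removal of mitochondria. Bnip3 (ENSMUSG00000078566, chr7:138890836-138909519, minus strand) had 163, 120.2 and 223 FPKM in allograft tumors, 104, 59.7 and 41.5 FPKM in metastases, 19.9, 111 and 40.3 FPKM in primary tumors, and 64.7, 71.2 and 80.2 FPKM in proximal tubule cells. Allograft tumors lay above all other libraries. Bnip3 rose in allograft tumors against primary tumors (1.84 ± 0.53, adjusted p = 0.0191 by limma), a call lost without allograft tumor 1 (adjusted p = 0.0505), allograft tumor 3 (0.0598) or primary tumor 3 (0.0593) and in a fit of the 2 groups alone (0.0853), with 0.00217 the lowest over 24 alternatives. With primary tumor 1 alone the change was 2.98 (adjusted p = 0.00416), and metastases then stood 1.63 above primary tumors (adjusted p = 0.0881), against 0.50 ± 0.53 with all libraries. Against proximal tubule cells the allograft change was 1.18 ± 0.53 and was not called (adjusted p = 0.0709; 5 of 24 alternatives called it, with adjusted p from 0.00593 to 0.683), and it turned to -0.24 after TPM rescaling. Metastases (-0.17 ± 0.53) and primary tumors (-0.66 ± 0.53) overlapped proximal tubule cells.

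Ndrg1, an N-myc downstream regulated gene induced by hypoxia in many cell types, was the only one of the 8 targets called lower against proximal tubule cells, as deposited and with all 12 libraries. Ndrg1 (ENSMUSG00000005125, chr15:66929318-66969640, minus strand) had 63.8, 75.3 and 143 FPKM in allograft tumors, 76.0, 44.2 and 34.9 FPKM in metastases, 115, 820.0 and 263 FPKM in primary tumors, and 1980.5, 1464 and 1301 FPKM in proximal tubule cells. It was the most abundant of the 10 genes in proximal tubule cells and fell to 0.0595-fold in allograft tumors (-4.12 ± 0.61, adjusted p = 1.63e-04 by limma), 0.0327-fold in metastases (-4.96 ± 0.61, adjusted p = 5.83e-05) and 0.252-fold in primary tumors (-2.41 ± 0.61, adjusted p = 0.00761). These 3 calls held in all 24 alternatives, the primary tumor change was -3.75 with primary tumor 1 alone, and none of the tumor libraries reached the lowest proximal tubule value. Metastases also lay below primary tumors (-2.55 ± 0.61, adjusted p = 0.0169). That call was lost without metastasis 2 (adjusted p = 0.0699) or 3 (0.0749), in a fit of the 2 groups alone (0.0948) and with primary tumor 1 alone (-1.22, adjusted p = 0.289), with 3.10e-05 the lowest over 24 alternatives. Allograft against primary tumors (-1.71 ± 0.61, adjusted p = 0.0446) overlapped and was called in 10 of 24 alternatives, with a change of -0.38 (adjusted p = 0.654) with primary tumor 1 alone and of -0.97 (adjusted p = 0.129) without primary tumor 2. Leaving out any 1 of the other libraries ended the call too, except allograft tumor 3 and primary tumor 1, with adjusted p from 0.00375 to 0.654 over all alternatives. Among primary tumors Ndrg1, Bnip3, Vegfa and Car9 were each highest in primary tumor 2, then 3, then 1, which is the order of Slc34a1 there, and the part of remaining tubule tissue in these levels was not tested.

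Several of the 10 genes shared an order of libraries within a group. In metastases, library 1 was the highest of the 3 for 7 of the 10 genes and library 3 the lowest for 7. Of 62 further hypoxia targets from 3 lists, 44 (71%) were highest in metastasis 1, against 38.8% of all 16313 genes, and 43 (69.4%) were lowest in metastasis 3, against 32.3%. Ankrd37, Egln3, Bnip3, Car9, Ndrg1, Adm and P4ha1 all fell in the order 1, 2, 3, with the highest library at 1.92-fold to 4.47-fold the lowest. Epas1 had the opposite order, and Hif1a differed by 1.09-fold between the highest and the lowest. Lung epithelial markers summed to 12140, 16790 and 19300 FPKM in metastases 1 to 3 and lymphocyte markers to 114, 176 and 195 FPKM, so these sums rose where the 7 genes fell. Their part in the order was not tested.

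In allograft tumors, library 3 was the highest for 6 of the 10 genes and for 38 of the 62 further targets (61.3%, against 33.6% of all genes). Vegfa, Car9, Ndrg1 and Bnip3 were among the 6, with Car9 at 3.33-fold its lowest allograft value. Macrophage markers summed to 7763, 4345 and 2032 FPKM in allograft tumors 1 to 3, lowest in library 3. The sums of fibroblast, lymphocyte and proximal tubule markers were lowest in library 3 too. The sum of 4 mesothelial markers was highest there, at 95.8, 125 and 313 FPKM in allograft tumors 1 to 3. Of these 4, 2 averaged at least 1 FPKM in allograft tumors. Wt1 was among them and was highest in library 2 (1.92, 7.67 and 2.25 FPKM), so most of the sum came from a single other gene. The part of these cell types in the order was not tested. In primary tumors the spread was widest for Ndrg1 (7.12-fold), Bnip3 (5.57-fold) and Vegfa (3.78-fold) and narrow for Ankrd37 (1.31-fold) and Hif1a (1.36-fold). Adm and P4ha1 were highest in primary tumor 1 there and fell in the order 1, 2, 3. In proximal tubule cells the same measure was at most 2.28-fold, for Adm. Genes of the response to tissue dissociation, which sorted cells can carry, summed to 282 to 487 FPKM in allograft tumors, 345 to 672 in metastases, 142 to 257 in primary tumors and 736 to 1586 in proximal tubule cells.

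**Figure D4:**
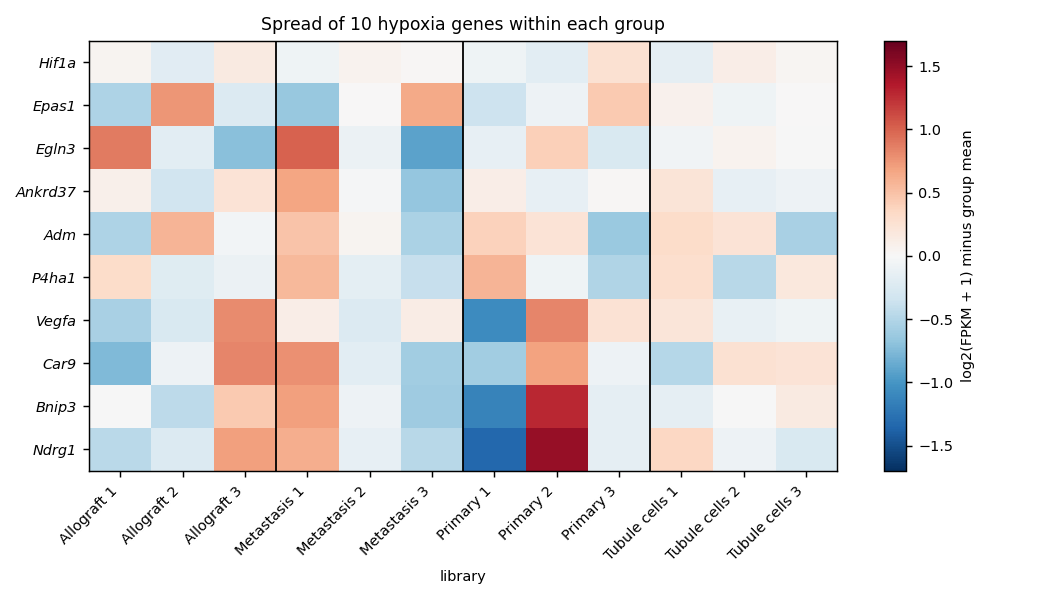
Log2(FPKM + 1) of the 10 genes minus the mean of their group, in the 12 libraries (columns) by gene (rows), red above and blue below the group mean. Metastasis 1 is above its group mean for 8 of the 10 genes, while Hif1a stays within 0.26 of the group mean in every library.

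The list of pathway components holds the partner, the hydroxylases and the degradation machinery of the alpha subunits. Of its 19 genes 18 were tested: 7 were called higher and 4 lower in allograft tumors against proximal tubule cells, 6 and 3 in metastases, and 3 and 1 in primary tumors. The shares called higher lay below those of all genes (52.2%, 54% and 48.2%). Their median changes were 0.13, 0.18 and 0.18, below the median gene in each comparison. Vhl, the substrate receptor that recognizes hydroxylated alpha subunits, averaged 18.7 FPKM in allograft tumors, 13.9 in metastases, 9.98 in primary tumors and 5.55 in proximal tubule cells. It was called higher in all 3 (1.58 ± 0.21, 1.18 ± 0.21 and 0.73 ± 0.21), but after TPM rescaling none of the 3 was called, and the primary tumor change was then -0.24, or -0.04 with quantile normalization. Elob, a partner of Vhl in the ligase, was called higher in allograft tumors (1.97 ± 0.25, lost after TPM rescaling at 0.54), in metastases (0.94 ± 0.25, -0.13 after TPM rescaling) and in primary tumors (0.70 ± 0.25, -0.41 after TPM rescaling).

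Arnt averaged 17.6 FPKM in allograft tumors, 19.4 in metastases, 18.04 in primary tumors and 16.1 in proximal tubule cells, and Egln2 19.2, 18.7, 19.9 and 17.4 FPKM in the same order, and neither was called in any of the 6 comparisons. Egln1, the main oxygen-sensing hydroxylase, had 28.6, 23.2 and 74.9 FPKM in allograft tumors 1 to 3, so their mean of 42.2 FPKM rests largely on library 3. Egln1 averaged 21.9 FPKM in metastases, 14.2 in primary tumors and 21.6 in proximal tubule cells. It was called higher in allograft against primary tumors (1.36 ± 0.38, adjusted p = 0.0171 by limma), a call lost with primary tumor 1 alone. Usp20, a deubiquitinase described as a stabilizer of HIF-1 alpha in human cells, was called lower in allograft tumors (-2.33 ± 0.45) and metastases (-1.36 ± 0.45) against proximal tubule cells. The chaperone gene Hsp90aa1 was called higher in allograft tumors (1.55 ± 0.25, lost after TPM rescaling at 0.13) and in metastases (0.66 ± 0.25). The metastasis change was no larger than that of the median gene (0.68). Of the ubiquitin ligase genes Siah1a and Siah2, Siah1a was called higher in primary tumors (0.75 ± 0.13, but -0.26 after TPM rescaling) and in metastases (0.93 ± 0.13, but -0.04 after TPM rescaling) and allograft tumors (0.82 ± 0.13, but -0.47 after TPM rescaling). Siah2 was called lower in primary tumors (-0.77 ± 0.20) and metastases (-0.51 ± 0.20).

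Among 18 genes of glycolysis and lactate export, 16 were called higher in allograft tumors, 12 in metastases and 7 in primary tumors against proximal tubule cells, and none was called lower. Of all genes 52.2%, 54% and 48.2% were called higher, so the share in primary tumors lay below the background. The list medians were 1.61, 1.40 and 0.65, beside 0.66, 0.68 and 0.59 for all genes. Pkm, the pyruvate kinase gene, averaged 737 FPKM in allograft tumors, 476 in metastases and 172 in primary tumors, against 22.4 FPKM in proximal tubule cells (4.97 ± 0.30, 4.33 ± 0.30 and 2.86 ± 0.30). Hk2, a hexokinase gene, averaged 31.1, 15.4 and 3.89 FPKM in these tumor groups, against 0.0623 FPKM in proximal tubule cells (0.0266 to 0.103 FPKM). There 1 fragment of a transcript of 2 kb is worth 0.0840 to 0.102 FPKM, and less for a longer one, so these Hk2 values may rest on few fragments. Slc16a3, the lactate exporter gene, averaged 20.9 FPKM in allograft tumors, 33.0 in metastases and 2.10 in primary tumors, against 0.127 FPKM in proximal tubule cells. Pfkp, a phosphofructokinase gene, was called higher in all 3 tumor groups (3.06 ± 0.27, 2.81 ± 0.27 and 2.62 ± 0.27), and Hk1 in primary tumors by 2.07 ± 0.35.

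Ldha, Pgk1 and Slc2a1, the classical glycolytic targets, divided the groups differently. Ldha averaged 844 FPKM in allograft tumors, 369 in metastases, 264 in primary tumors and 259.9 in proximal tubule cells, and Pgk1 784, 287, 223 and 262 FPKM. Both were called higher in allograft tumors against each of the other groups and in no comparison between the others. Against proximal tubule cells the changes were 1.65 ± 0.38 for Ldha (adjusted p = 0.00263 by limma) and 1.54 ± 0.45 for Pgk1 (adjusted p = 0.0108), and against metastases 1.19 ± 0.38 (adjusted p = 0.0436) and 1.504 ± 0.45 (adjusted p = 0.0354). After TPM rescaling both genes lost these 2 calls, and the Pgk1 call against proximal tubule cells was lost under all 4 scalings. Slc2a1, the glucose transporter gene, averaged 47.7 FPKM in allograft tumors, 30.3 in metastases, 18.3 in primary tumors and 11.5 in proximal tubule cells, and was called higher in allograft tumors (1.89 ± 0.41) and metastases (1.25 ± 0.41) against proximal tubule cells. The allograft call was lost after TPM rescaling, and the metastasis call under all 4 scalings.

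Among 24 genes of stress and mitochondrial adaptation, 13 were called higher and 6 lower in allograft tumors, 12 and 3 in metastases, and 3 and 1 in primary tumors against proximal tubule cells. The higher shares were close to those of all genes in allograft tumors (52.2%) and metastases (54%) and below them in primary tumors (48.2%). The list medians were 0.91, 0.78 and 0.30, beside 0.66, 0.68 and 0.59 for all genes. Hilpda, a lipid droplet gene, rose in allograft tumors (38.1 FPKM) and metastases (26.01 FPKM) against 2.08 FPKM in proximal tubule cells. Ndufa4l2, a mitochondrial subunit gene, rose in allograft tumors (2.42 ± 0.31) and also in primary tumors (1.199 ± 0.31) and metastases (2.44 ± 0.31), the primary tumor call being lost under all 4 scalings. Hmox1, heme oxygenase, rose in metastases (4.14 ± 0.45) and in primary tumors (1.35 ± 0.45, lost under all 4 scalings), and Cox4i2, a lung isoform of a respiratory subunit, rose in metastases (18.4 FPKM against 0.89 FPKM in proximal tubule cells). Bnip3l, the paralog of Bnip3, averaged 60.0 FPKM in allograft tumors, 48.9 in metastases, 32.9 in primary tumors and 23.1 in proximal tubule cells, and was called higher in the first 2 (1.19 ± 0.32 and 1.04 ± 0.32), calls lost under all 4 scalings, with -0.20 in allograft tumors after TPM rescaling. Car12, a carbonic anhydrase gene of kidney epithelium, fell in metastases (1.97 FPKM against 114 FPKM in proximal tubule cells), Ak4, a mitochondrial adenylate kinase gene, fell in metastases (-4.39 ± 1.12) and allograft tumors (-3.35 ± 1.12), and Selenbp1 fell in allograft tumors (-3.88 ± 0.89). Pnrc1 (-0.63 ± 0.23) was the gene called lower in primary tumors, and Bhlhe41 rose there by 0.55 ± 0.20, but was -0.15 on the TPM scale and -0.71 with quantile normalization.

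Among genes of matrix and vessels 20 of 21 were tested, without Epo, which was at 0 in all primary tumor and proximal tubule libraries. Against proximal tubule cells 16 were called higher in allograft tumors, 18 in metastases and 15 in primary tumors, and none lower, where 52.2%, 54% and 48.2% of all genes were called higher and 16.9%, 14.4% and 4.9% lower. The list medians were 2.15, 2.57 and 1.52, beside 0.66, 0.68 and 0.59 for all genes. Lox, a collagen cross-linking enzyme gene, rose in allograft tumors (61.5 FPKM) and metastases (37.0 FPKM) against 0.333 FPKM in proximal tubule cells, and Pgf, a relative of Vegfa, rose to 29.2 FPKM in allograft tumors against 0.108 FPKM. Several genes of this list belong to other cell types as well: Itgb2 (4.95 ± 0.39, 5.77 ± 0.39 and 3.96 ± 0.39 in allograft tumors, metastases and primary tumors) is a leukocyte integrin, Cxcr4 (5.27 ± 0.31 in metastases) is a chemokine receptor of leukocytes, and Angpt2 and Ets1 (3.44 ± 0.53 and 2.72 ± 0.18 in primary tumors) are expressed by endothelium. All 10 macrophage markers were called higher in each tumor group, with sums of 2032 to 7763 FPKM in allograft tumors, 5774 to 6403 in metastases and 515 to 3393 in primary tumors, against 8.08 to 8.41 FPKM in proximal tubule cells, and their part in these changes was not tested.

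Taking the 62 tested targets of the 3 lists, 45 were called higher and 6 lower in allograft tumors, 42 and 3 in metastases, and 25 and 1 in primary tumors against proximal tubule cells. Of all genes 52.2%, 54% and 48.2% were called higher, so the share in primary tumors lay below the background. On the TPM scale these counts were 18 and 15, 24 and 11, and 10 and 16, and with median-of-ratios factors 36 and 10, 32 and 7, and 15 and 4. The list median exceeded the all-gene median in allograft tumors and metastases under each of these scalings: by 1.57 against 0.66 and 1.39 against 0.68 as deposited, 0.27 against -0.37 and 0.48 against -0.18 on the TPM scale, and 1.00 against 0.19 and 0.91 against 0.20 with median-of-ratios factors. In primary tumors the pairs were 0.61 against 0.59, -0.30 against -0.29, and 0.09 against 0.08. Between tumor groups 27 targets were called higher and 6 lower in allograft against primary tumors, 22 and 2 in metastases against primary tumors, and 5 and 10 in allograft tumors against metastases. The shares of all genes called higher and lower were 20.5% and 21.1%, 11.3% and 9.59%, and 10.4% and 13.3% in these comparisons. With primary tumor 1 alone fewer targets were called in the first 2 comparisons, and fewer of all genes too.

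**Figure D5:**
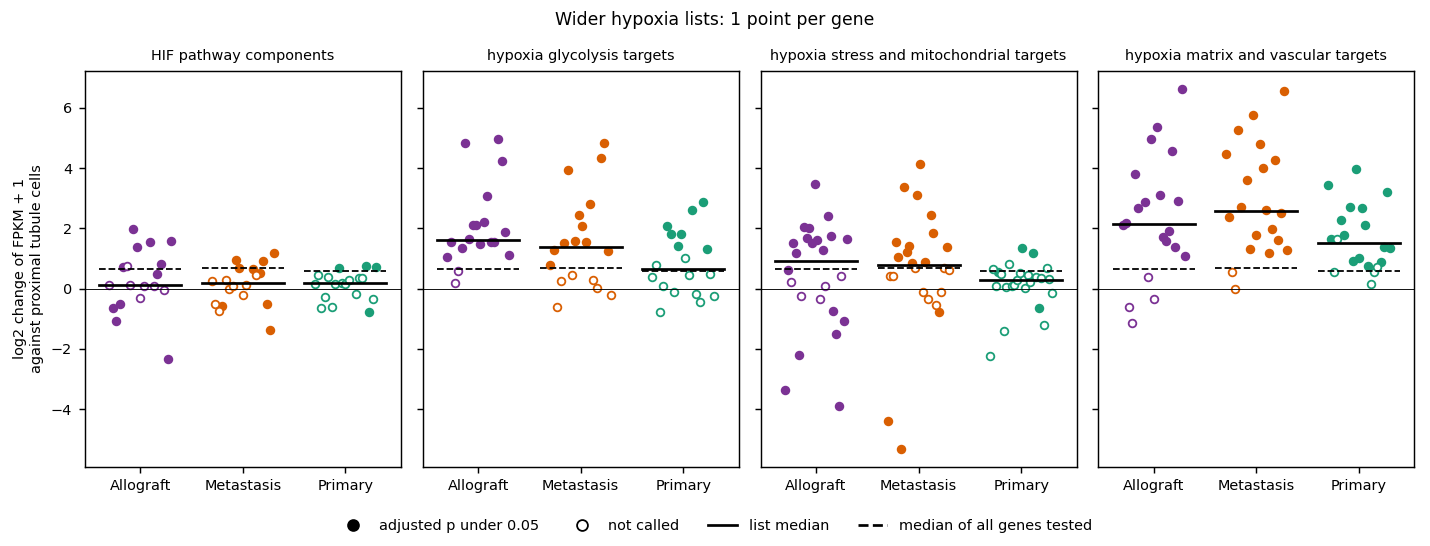
Log2 change of FPKM + 1 against proximal tubule cells for the genes of 4 lists (panels) in allograft tumors, metastases and primary tumors. Each point is a gene, filled where called; the solid bar is the list median and the dashed bar the median of all genes tested. The medians of the 3 target lists lie above the dashed bar in allograft tumors and metastases, and the median of the pathway components lies below it.

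By Pearson correlation of log2(FPKM + 1) over the 12 libraries, the genes most like Hif1a were Zfpm2 (0.988), Eno2 (0.988) and Cep78 (0.986), each highest in the 3 allograft tumors and lowest in proximal tubule cells. Eno2 ranged from 8.49 to 11.2 FPKM in allograft tumors and from 0.176 to 0.314 FPKM in proximal tubule cells. The genes most like Epas1 were Jup (0.981), Arhgef38 (0.956) and Tppp (0.947). Jup, which encodes plakoglobin of cell junctions, had 11.3, 19.5 and 11.01 FPKM in allograft tumors and 32.5, 41.0 and 42.9 FPKM in metastases. The genes most like Car9 were Sun1 (0.931), Itpk1 (0.925) and Gpi1 (0.902), the last of which belongs to glycolysis. The 12 libraries share their 4 groups, so these values mostly restate the group levels.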

How the data were processed

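RNA of 12 mouse samples in 4 groups of 3 was extracted with the RNeasy Micro kit and made into libraries by Illumina protocols, per the labels. The authors deposited 1 table of FPKM values for 24432 genes, made with bcl2fastq 2.17.1.14, Salmon and the builds GRCm38 and mm10, which the submitters' processing notes name without their roles; the step that gave FPKM is not stated. The 10 genes and the wider lists were chosen with earlier results of these data known. Gene IDs were matched to GENCODE M21 (24189 matched), whose GRCm38 gene coordinates are printed. Genes with at least 1 FPKM in at least 3 libraries (16313) were tested on log2(FPKM + 1) with limma 3.58.1 in R 4.3.3 (intensity trend, 1 fit of all 12 libraries, Benjamini-Hochberg adjustment, threshold 0.05); fold changes on this scale understate the change of low genes. The fit was tested on simulated data. Depth was estimated from the spacing of low FPKM values of genes with 1 transcript and is approximate, since 58.3% to 81.3% of them came out whole within 0.1 of a step, where 20% would by an even spread. The Epas1 to Hif1a ratio was tested with an exact permutation of libraries in Python 3.11.15. Named genes were all 10, the targeted genes, in each list up to 4 called genes with the largest change against proximal tubule cells, 8 further fixed genes, and the 3 genes best correlated with Hif1a, Epas1 and Car9; marker genes and repeats of named genes in other groups were added. 1 gene that this rule names is not reported here. Alternatives covered pseudocount, filter, scaling, fits of 2 groups, a replicate block, array weights, each library left out, and primary tumors 2 and 3 left out; running these on the wider lists was chosen after seeing the data.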

Additional observations from a re-analysis of the deposited data

How the results depend on the processing

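Of 1440 results for single genes under 24 alternatives, 54 lost and 46 gained a call. Of those lost, 2 also changed sign, both for Hif1a after TPM rescaling, at -0.065 in primary tumors and -0.012 in metastases against proximal tubule cells. The median of all genes tested was then at -0.29 and -0.18 in these 2 comparisons, and the cause was not tested. Another 62 changed sign without a call either way. Of the 10 genes, those called in primary tumors against proximal tubule cells (2) numbered 1 after median-of-ratios scaling and 4 with array weights. In allograft tumors against metastases (3) they numbered 5 after quantile normalization, 6 with array weights and 5 with primary tumor 1 alone. In metastases against primary tumors (4) they numbered 2 in a fit of the 2 groups and 2 with primary tumor 1 alone, and in allograft against primary tumors (8) 5 and 5, where fewer samples enter. Leaving out 1 library gave 2 to 5 in allograft tumors against metastases, where leaving out primary tumor 1 or 2 gave 5. It gave 5 to 7 in allograft against primary tumors, with 5 without primary tumor 3, and 6 to 8 in allograft tumors against proximal tubule cells. It gave 3 to 5 in metastases against primary tumors, 5 to 6 and 2 to 3 in metastases and primary tumors against proximal tubule cells, and 6 to 9 for the F test. The exact permutation p of the Epas1 to Hif1a ratio ran from 0.0004545 to 0.003214 over its alternatives. Over all genes, calls in metastases against primary tumors (1849 higher, 1565 lower) were 712 and 463 in a fit of the 2 groups, 5246 and 4497 with array weights, 598 and 498 with primary tumor 1 alone, 777 and 742, 537 and 625, and 594 and 686 without metastasis 1, 2 and 3, and 3297 and 2918, 998 and 926, and 959 and 720 without primary tumor 1, 2 and 3. In allograft against primary tumors (3345 and 3439) they were 1404 and 1489 in a fit of the 2 groups and 1479 and 1709 with primary tumor 1 alone. In allograft tumors against metastases (1703 and 2169) they were 3239 and 3272 with array weights, and 969 and 1463, 793 and 1239, and 763 and 1181 without metastasis 1, 2 and 3. Deviations of same-numbered libraries correlated at -0.043 to 0.098. With 3 libraries of mixed tissue in each tumor group, this cannot tell whether replicate numbers pair the samples, and the main fit used no pairing. With the replicate block, 7 of the 10 genes passed the F test; Ndrg1 in allograft against primary tumors was not called (adjusted p = 0.0657 by limma), and Ankrd37 in primary tumors against proximal tubule cells was (adjusted p = 0.0419 by limma). Depth limits the low values of proximal tubule cells, where Ankrd37 rests on about 10 fragments.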
